A study of Mus musculus with 2 samples.

Results

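MHC class II presentation was followed through 9 genes in single cells of mouse dorsal skin: Cd74, H2-Aa, H2-Ab1, H2-Eb1, H2-DMa, H2-DMb1, H2-DMb2, Ciita and Ctss. The genes were taken by name, and all 9 were found among the 31053 genes of the files. Each was measured per cell class in 1 library from wild-type (WT) mice and 1 library from Chrna5-/- mice, which lack the alpha 5 subunit of the nicotinic acetylcholine receptor. Per the labels, both groups were female C57BL/6 mice of 6 to 8 weeks whose backs received vaseline, the base of a cream used elsewhere in the study, and skin was collected at day 7. The knockout line is described as backcrossed to C57BL/6N, whereas the extraction text names C57BL/6J and imiquimod-treated skin, and the sample labels name vaseline for both libraries. Cells were freed with collagenase and sorted for viability by the absence of SytoxBlue. Neither the number of mice in each library nor the deleted part of Chrna5 is given in the sources used here.

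Class II molecules are pairs of an alpha and a beta chain that carry peptides from the endosome to the cell surface, where CD4 T cells read them. In the endoplasmic reticulum the pair is held by the invariant chain, encoded by Cd74, which cathepsin S (Ctss) trims to a short peptide in the endosome. H2-DM then exchanges that peptide for one taken up by the cell, and Ciita is the coactivator that switches these genes on. In mouse epidermis the resident class II cell is the Langerhans cell, marked by the lectin langerin (Cd207). H2-Aa with H2-Ab1 makes the I-A pair, H2-Eb1 encodes the I-E beta chain, and H2-DMa pairs with the product of H2-DMb1 or H2-DMb2.

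Of the 9 genes 6 lie close together on GRCm38 (GENCODE vM21). On chromosome 17 the plus strand holds H2-DMa (chr17:34119541-34139101), H2-DMb2 (chr17:34143307-34151555), H2-DMb1 (chr17:34153072-34160230), H2-Ab1 (chr17:34257689-34269419) and H2-Eb1 (chr17:34305867-34316674), and the minus strand holds H2-Aa (chr17:34282744-34287823). Ctss is at chr3:95526786-95556403, Ciita at chr16:10480059-10528418 and Cd74 at chr18:60803848-60812652, all on the plus strand. H2-DMa overlaps Brd2 on the opposite strand, which had 19086 and 16826 UMIs in kept cells, and whether counting used strand is not given in the sources used here, so H2-DMa outside Langerhans cells is uncertain. H2-DMb1 and H2-DMb2 are near copies. Of the 50-base runs in the last 500 bases of the H2-DMb1 transcript 20.4% also occur in an H2-DMb2 transcript, and none of those in the last 500 bases of the 3 H2-DMb2 transcripts occur in H2-DMb1. No source used here gives how shared reads were counted.

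The libraries held 10741 (WT) and 9696 (Chrna5-/-) barcodes with medians of 12245 and 12223.5 UMIs, and 9673 and 8869 cells were kept after filters on depth, mitochondrial share and doublets. The libraries shared 34 barcodes, none of them a Langerhans cell-like cell. Chrna5 itself had 11 UMIs in the kept WT cells and 2 in the kept knockout cells, so this check of the labels rests on few counts. Classes were named from marker genes that include none of the 9 genes, and the 9 genes were also kept out of the clustering. With 1 library per genotype there is no replicate and no test, and the differences are between these 2 libraries. Intervals are exact 95% intervals for counting error only. Levels are CPM, the UMIs of a gene scaled to a fixed total of the UMIs of a class, not scaled by gene length, so levels of different genes are not ranked. A gene was measured in a class with at least 20 UMIs over both libraries, and it is called higher or lower where the ratio of CPM, Chrna5-/- over WT, reached 1.5 in either direction and the interval left out 1.

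The starts of 4 class II genes are shown because H2-DMb1 and H2-DMb2, which start alike, differed in how much of their UMIs lay outside Langerhans cell-like cells. Class II genes are known to be controlled through upstream elements called the X box and the Y box. The stretches come from RefSeq promoters (GRCm38.p6), which were matched for 6 of the 9 genes, and are written 5′ to 3′ on the gene's strand. Capitals mark matches to AACNGATGATGCT, the longest run that H2-DMb1, H2-DMb2 and H2-Eb1 share with at most 1 varying base, and to TGATTGG, chosen after these stretches were seen. H2-DMb1 is shown only around its first match, because GENCODE places it in that gene's 5′ UTR.
H2-DMb1 (chr17:34153089-34153118, plus strand): tttacctagtAACTGATGATGCTaggctga
H2-DMb2 (chr17:34145102-34145183, plus strand): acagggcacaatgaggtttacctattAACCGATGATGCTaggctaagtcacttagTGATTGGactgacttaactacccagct
H2-Eb1 (chr17:34305751-34305832, plus strand): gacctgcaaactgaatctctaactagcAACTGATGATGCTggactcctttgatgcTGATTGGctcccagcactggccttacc
H2-Aa (chr17:34287847-34287928, minus strand): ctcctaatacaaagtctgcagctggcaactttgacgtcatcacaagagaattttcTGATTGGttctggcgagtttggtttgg

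The stretch of H2-DMb2 lies in its gene model outside any exon, that of H2-Eb1 lies in the gene Gm20513 outside any exon, and that of H2-Aa lies in no annotated gene. Searched on both strands of 32851 RefSeq promoters of 300 bases, AACNGATGATGCT occurred in 5 (0.0152%), TGATTGG in 2568 (7.82%) and both in 3 (0.00913%), the 3 genes from which the longer run was taken. The matches do not overlap, and in H2-DMb1 and H2-DMb2 alike 16 bases separate them, with 15 in H2-Eb1. Aligned without gaps on TGATTGG, stretches of 82 bases of H2-DMb1 and H2-DMb2 had the same base at 69 positions (84.1%), against 24 for H2-DMb1 with H2-Eb1 and 26 for H2-DMb1 with H2-Aa. H2-Aa had TGATTGG alone, and neither run matched in the promoters of H2-DMa and Ctss.

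Over all kept cells, Cd74, H2-Aa, H2-Ab1 and H2-Eb1, called the 4 chain genes here, had 30913 UMIs in WT and 12565 in Chrna5-/- cells. This was 241 and 109 CPM, a ratio of 0.452 (0.443 to 0.461). By this measure 8 of the 9 genes were lower in the Chrna5-/- library, all but H2-DMb1 at 0.684, where 8.96% of the 16057 measured genes were lower and 11.6% were higher or lower. In such a sum, fewer cells of a type and less RNA per cell cannot be told apart. The Langerhans cell-like class held 442431 UMIs of all genes in WT and 180218 in Chrna5-/-, and the class by class values below separate the cells from the level within them.

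The Langerhans cell-like class, cluster 18, had 68 WT cells and 58 Chrna5-/- cells. All 11 Langerhans cell markers of the fixed list were found in both libraries, at a summed 17704.5 and 17157 CPM, and Cd207 was at 4362 and 4877 CPM. Of the 8 dermal dendritic markers 4 were found in each library, at a summed 172 and 133 CPM. Xcr1, Clec9a and Clec10a were at 0 in both libraries. Macrophage markers summed to 409 CPM (7 of 10 found) and 372 CPM (6 of 10 found), and of the B cell markers only Ighm was found. T and innate lymphoid markers summed to 1080 CPM (13 of 13 found) and 999 CPM (9 of 13 found, with Cd3e, Cd3d, Trac and Tcrg-C1 at 0), and basal keratinocyte markers to 4193 and 1848 CPM. The part of these other-cell transcripts in the results was not tested. The median depth was 3763.5 UMIs per WT cell and 1087.5 per Chrna5-/- cell.

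Within this class none of the 9 genes was higher or lower, where 11.5% of 3949 measured genes were. The invariant chain gene Cd74 had 9083 UMIs in WT and 4380 in Chrna5-/-, at 20530 and 24304 CPM, a ratio of 1.18 (1.14 to 1.23). The I-A alpha chain gene H2-Aa was at 8761 and 8739 CPM, a ratio of 0.998 (0.940 to 1.06). Its beta chain partner H2-Ab1 was at 12049 and 13894 CPM, a ratio of 1.15 (1.10 to 1.21). The I-E beta chain gene H2-Eb1 was at 10415 and 10904 CPM, a ratio of 1.05 (0.993 to 1.10). All 4 intervals lie inside the 1.5-fold bounds over the class as a whole, which its deeper cells dominate.

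The accessory genes had fewer UMIs and wider intervals. H2-DMa, the alpha chain of the peptide exchanger, was at 1363 and 1620 CPM, a ratio of 1.19 (1.03 to 1.37). For its beta chains the ratio was 1.28 (1.04 to 1.57) for H2-DMb1 and 1.33 (0.932 to 1.87) for H2-DMb2, with 273 and 142 UMIs for the first and 98 and 53 for the second. Ctss, the protease that trims the invariant chain, was at 674 and 871 CPM, a ratio of 1.29 (1.06 to 1.57). Ciita had 90 and 33 UMIs, at 203 and 183 CPM, a ratio of 0.900 (0.585 to 1.36). Over the 9 genes the median log2 ratio was 0.24, beside 0.05 over all measured genes of the class. The intervals of H2-DMb1, H2-DMb2 and Ctss reach past 1.5 and that of Ciita past the same bound on the lower side, so these counts do not place the 4 ratios within 1.5-fold.

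**Figure D1:**
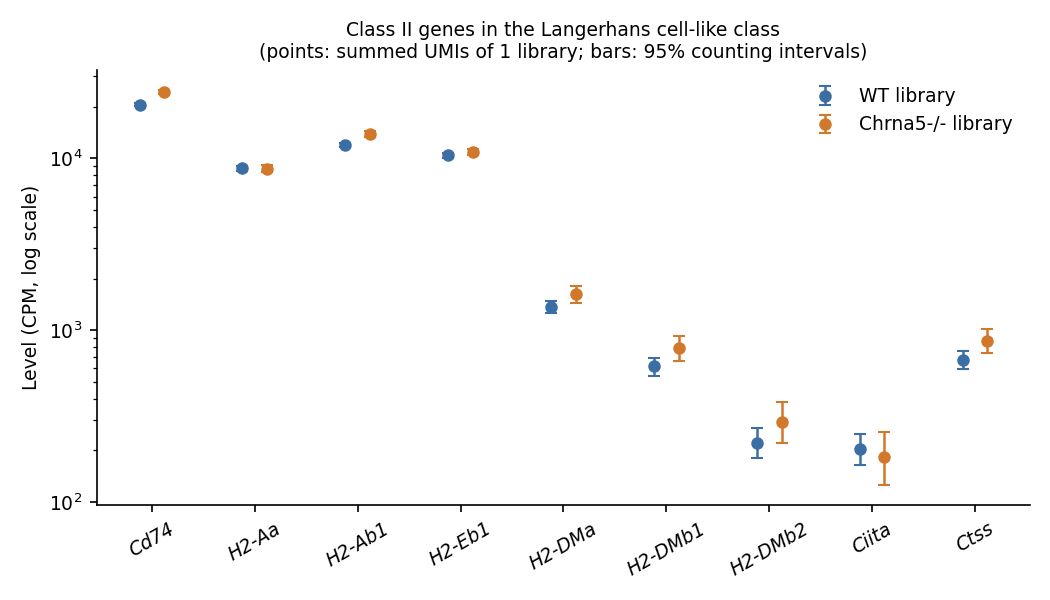
Levels of the 9 class II genes in the Langerhans cell-like class, in CPM on a log axis, with WT and Chrna5-/- side by side for each gene. Points are the summed UMIs of 1 library and bars are exact Poisson 95% intervals for counting error. Cd74 lies at 20530 and 24304 CPM and Ciita at 203 and 183 CPM, and no gene pair differs by 1.5 times.

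Cells of the class varied far more than the libraries. The 4 chain genes made up 0.535% to 11.3% of a WT cell's UMIs with a median of 5.03%, and 0.332% to 10% of a Chrna5-/- cell's UMIs with a median of 4.65%. The ranges overlap almost throughout. The lower values went with the mitochondrial share in both libraries: cells with at most 10% mitochondrial UMIs had medians of 6.22% (45 WT cells) and 6.30% (38 Chrna5-/- cells), and cells above it 1.77% (23 cells) and 2.12% (20 cells). Ciita did not follow the chain genes in that split. It was at 157 and 163 CPM in the cells with at most 10% and at 723 and 333 CPM in the others, from 26 and 7 UMIs. Cd207 was at 4323 and 4724 CPM in the first cells and 4811 and 6044 CPM in the second. The split was chosen after the values were seen, and its part in the comparison of the libraries was examined by leaving the high cells out: the chain sum then had a ratio of 1.15 (1.12 to 1.17), and no gene of the 9 was higher or lower, where 12.9% of 3656 measured genes were. In the cells above 10% the chain sum had a ratio of 1.05 (0.94 to 1.17), and Cd74 was higher at 1.56 (1.3 to 1.88), from 250 and 228 UMIs, where 17% of 406 measured genes were higher or lower.

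Depth differed as well. In the WT library 43 of 68 cells had at least 2000 UMIs, and in the Chrna5-/- library 17 of 58. In those deeper cells the chain sum was 53695 and 62865 CPM, a ratio of 1.17 (1.14 to 1.2), and again none of the 9 genes was higher or lower, where 14.2% of 3619 measured genes were. The shallower cells, 25 in WT and 41 in Chrna5-/-, differed more. Their chain sum was 23200 and 38934 CPM, a ratio of 1.68 (1.53 to 1.84) from 653 and 1473 UMIs. Among their 8 measured class II genes Cd74 at 2.3 (1.97 to 2.7), H2-Aa at 1.67 (1.31 to 2.14) and H2-Ab1 at 1.52 (1.25 to 1.87) were higher, and Ciita at 0.425 (0.191 to 0.905) was lower, where 33.5% of 474 measured genes were higher or lower. H2-Eb1 was neither, at 1.1 (0.911 to 1.33). These cells held 1473 of the 10424 Chrna5-/- chain UMIs and 653 of the 22898 WT ones, so they weigh little in the sum over the class. The splits by depth and by mitochondrial share each leave fewer than 40 cells in at least 1 library, the minimum set for comparing classes. After each cell was thinned to 1000 UMIs, all 57 WT cells and all 34 Chrna5-/- cells that reached that depth still held a chain UMI, with 11 and 24 shallower cells left out.

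Genes that act with class II were read in the same cells from lists, of which 37 genes were measured, 1 was higher and 6 were lower (over all measured genes 6.08% were higher and 5.47% lower), at a median log2 ratio of 0.00. Among class II regulators 13 of 19 were measured, and the lower ones were Irf4, a dendritic cell transcription factor, and Jak2, a kinase of interferon gamma signalling. Irf4 was at 181 and 105 CPM, a ratio of 0.583 (0.334 to 0.971), and Jak2 at 140 and 66.6 CPM, a ratio of 0.475 (0.233 to 0.890). The Irf4 call rests on 80 and 19 UMIs, and with each cell weighted equally its log2 ratio was 0.04. Spi1, which encodes the myeloid factor PU.1, was at 283 and 283 CPM. Rfx5, which encodes a subunit of the complex that binds the X box, had 8 and 5 UMIs and was not measured.

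Among 15 measured processing and traffic genes, the protease gene Ctsh was higher and 3 were lower. Ctsh was at 201 and 361 CPM, a ratio of 1.79 (1.28 to 2.50). The lower genes were the protease gene Ctsz, at 556 and 355 CPM with a ratio of 0.639 (0.477 to 0.844), and the endosomal membrane protein genes Cd63 and Lamp1. Cd63 was at 861 and 411 CPM, a ratio of 0.477 (0.367 to 0.613), and Lamp1 at 179 and 94.3 CPM, a ratio of 0.528 (0.293 to 0.900). The median log2 ratio of the 15 was 0.00. The calls of Jak2 and Lamp1 each ended in 4 of 12 alternative settings and that of Irf4 in 3 of 12, with Lamp1 at a log2 ratio of -0.16 when class II genes were among the variable genes. That of Ctsh ended in 2 of 13, and those of Ctsz and Cd63 in 1 of 13 each.

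Of 9 measured costimulation and maturation genes 1 was lower, the migration receptor gene Ccr7, at 231 and 94.3 CPM with a ratio of 0.409 (0.229 to 0.688). Its 102 WT UMIs lay in 6 of 68 cells and its 17 Chrna5-/- UMIs in 2 of 58 cells, so a few cells set the value. Cd86, a costimulatory ligand, was at 423 and 494 CPM, a ratio of 1.17 (0.897 to 1.51). The median log2 ratio of these 9 genes was -0.29. The further class II loci were too sparse to compare, with 8 and 6 UMIs for H2-Oa, 7 and 3 for H2-Ob and 6 and 1 for H2-Eb2.

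Outside the Langerhans cell-like class the chain genes had 8015 WT and 2141 Chrna5-/- UMIs. These were 25.9% and 17% of all chain UMIs. Levels of the 4 chain genes were much lower in every other class than in the Langerhans cell-like one. The level was 51755 CPM in WT and 57841 CPM in Chrna5-/- Langerhans cell-like cells. It was 5243 and 566 CPM in cluster 14, an unnamed mixture that includes lymphoid cells, and 78.4 and 77.4 CPM in dermal papilla-like cells. T and innate lymphoid-like cells were at 62 and 45.6 CPM and fibroblast-like cells at 28.2 and 28.1 CPM. Melanocyte-like cells were at 15.8 and 26.9 CPM and keratinocyte-like cells at 21.0 and 13.7 CPM. In the WT library the intervals of dermal papilla-like (69.7 to 88.0) and T and innate lymphoid-like cells (48.5 to 78.1) overlap. So do those of keratinocyte-like (20.1 to 21.8), fibroblast-like (20.6 to 37.7) and melanocyte-like cells (11.5 to 21.1), so these neighbours are not ordered in WT. Fibroblast-like cells had at most 20 UMIs of any of the 9 genes in a library, melanocyte-like cells at most 16, and the unnamed cluster 16 at most 13, too few to compare most genes one by one.

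**Figure D2:**
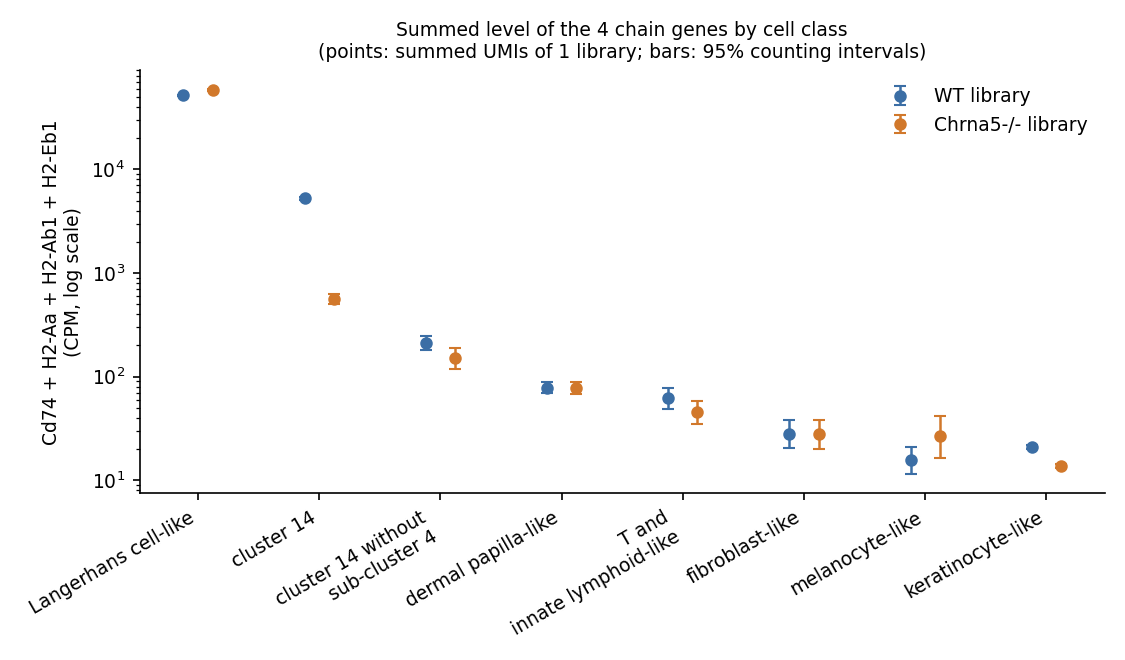
Summed level of Cd74, H2-Aa, H2-Ab1 and H2-Eb1 in CPM on a log axis, by cell class, with 1 point per library and bars for exact Poisson 95% intervals. The 2 libraries lie close together at 51755 and 57841 CPM in the Langerhans cell-like class, and furthest apart in cluster 14, at 5243 and 566 CPM, which shrinks to 210 and 151 CPM without its sub-cluster 4.

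The largest gap between the libraries was in cluster 14, with 324 WT and 184 Chrna5-/- cells led by Igkc, Igha, Jchain, Srgn, Ccl5, Cd52 and Il17a. Its chain genes had 5073 UMIs in WT and 305 in Chrna5-/-, a ratio of 0.108 (0.0959 to 0.121). All 7 measured class II genes were lower there, where 5.09% of 6601 measured genes were lower and 12.1% were higher or lower. Cd74 was at 2099 and 234 CPM, H2-Aa at 1090 and 134 CPM, H2-Ab1 at 1197 and 96.5 CPM and H2-Eb1 at 857 and 102 CPM. H2-DMb1 had 98 and 8 UMIs, H2-DMa 112 and 11, and Ctss 146 and 25.

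That signal was held by a handful of cells. Clustered again on its own, cluster 14 gave a sub-cluster 4 of 27 WT and 13 Chrna5-/- cells, led by Il1b, H2-Ab1, H2-Aa and H2-Eb1, which held 4905 of the 5073 WT chain UMIs and 235 of the 305 Chrna5-/- ones. Because class II genes led that sub-cluster, their level in it is a description. Within it, 12 WT cells and 1 Chrna5-/- cell had at least 50 chain UMIs each, together 4827 and 204 UMIs. The WT cells ran from 56 to 882 chain UMIs, a median of 5.45% of their UMIs, a level that follows in part from how they were picked. None of these 13 cells had a Cd207 UMI. In WT, 10 of the 12 had Cd209a or Mgl2, lectin genes of the dermal dendritic list, with 133 and 109 UMIs, and Cd3e and Trdc, which mark T cells, were at 0.

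The marker lists were read in those 12 cells. Dermal dendritic markers summed to 3031 CPM in them with 5 of 8 found (Xcr1, Clec9a and Zbtb46 at 0), against 172 CPM in WT Langerhans cell-like cells. Of the Langerhans cell markers 6 of 11 were found, at a summed 5081 CPM against 17704.5 CPM in that class, with Cd207, H2-M2, Mfge8, Ltc4s and Tbc1d4 at 0. Macrophage markers reached 1408 CPM with 9 of 10 found, and T and innate lymphoid markers 1014 CPM with Cd3e, Cd3d, Cd3g, Trac, Trdc, Tcrg-C1 and Ltb at 0. Basal keratinocyte markers stood at 5881 CPM in these 12 cells, against 4193 CPM in WT Langerhans cell-like cells, and their part in the result was not tested. The cells had 1068 to 28378 UMIs and doublet scores of 0.0772 to 0.223, under the limit of 0.25. When every kept cell was instead gated by its own markers, 8 WT cells and 2 Chrna5-/- cells of the whole libraries met the dermal dendritic gate. How many of the 12 cells are among them was not counted.

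Leaving out sub-cluster 4, the rest of cluster 14 had 168 and 70 chain UMIs, at 210 and 151 CPM, a ratio of 0.720 (0.537 to 0.957), which is neither higher nor lower. Cd74 then had a ratio of 0.515 and Ctss of 0.565, and H2-Aa turned to 1.82 (0.906 to 3.68) on 18 and 19 UMIs. The share of chain UMIs outside the Langerhans cell-like class also changed order: without sub-cluster 4 it was 12% in WT and 15.5% in Chrna5-/-.

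**Figure D3:**
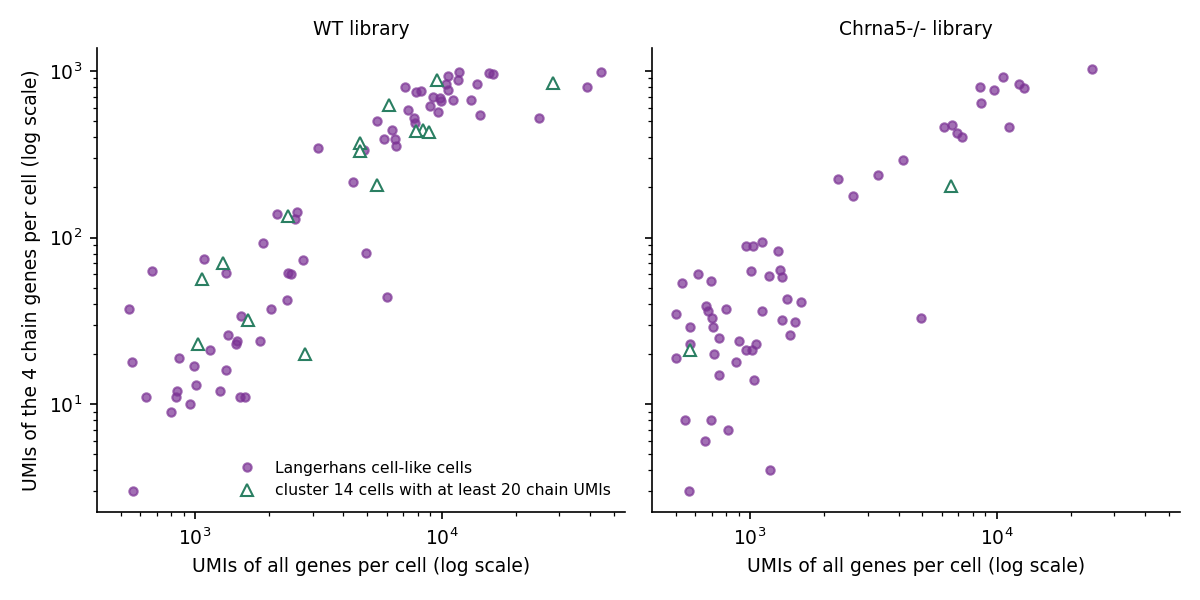
Chain gene UMIs per cell against all UMIs per cell, both on log axes, with the WT library on the left and the Chrna5-/- library on the right. Circles are Langerhans cell-like cells and triangles are cluster 14 cells with at least 20 chain UMIs, of which there were 15 in WT and 2 in Chrna5-/-. The WT triangles run along the circles up to 882 chain UMIs.

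In the T and innate lymphoid-like class, cluster 5, class II transcripts were rare and scattered. This class does not hold all lymphoid cells. T and innate lymphoid markers summed to 5858 and 5523 CPM in the mixed cluster 14, which was at 210 and 151 chain CPM without its sub-cluster 4. Cluster 5 had 431 WT and 484 Chrna5-/- cells with 72 and 66 chain UMIs. A single UMI was found in 46 and 40 cells, and only 1 WT cell and 2 Chrna5-/- cells had 5 or more. Cd74 had 25 and 28 UMIs, H2-Ab1 22 and 14, and H2-Eb1 18 and 16. None of these 3 measured genes was higher or lower, where 7.79% of 8202 measured genes were, and the chain sum had a ratio of 0.735 (0.519 to 1.04). At the Langerhans cell-like class's own ratio of chain UMIs to Cd207 UMIs, the 3 and 5 Cd207 UMIs found here would come with 35.6 and 59.3 chain UMIs, so the observed counts were 2.02 times (0.664 to 10) and 1.11 times (0.452 to 3.55) that number. Ctss stood apart from that ratio. Its 10 and 6 UMIs were 12.2 times (5.17 to 26.6) and 5.98 times (1.99 to 15) the number that goes with the same Cd74 UMIs in Langerhans cell-like cells.

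Keratinocyte-like cells, clusters 1 to 4, 6 to 11, 13, 15, 17 and 20, made up most of both libraries with 7625 and 7109 cells. In them the chain genes had 2444 UMIs in WT and 1482 in Chrna5-/-, a ratio of 0.656 (0.614 to 0.7). Cd74 at 0.618, H2-Aa at 0.581, H2-Ab1 at 0.572 and Ctss at 0.351 were lower, and H2-Eb1 at 0.773, H2-DMa at 0.867 and H2-DMb1 at 0.834 were neither. That is 4 of 7 measured genes lower, where 7.9% of 14628 measured genes were lower and 10.6% were higher or lower. Cluster 4 had the Langerhans cell marker H2-M2 and no keratinocyte marker among its leading genes. Clusters 7, 9 and 17 also had no keratinocyte marker there, and 8 basal keratinocyte markers were found in cluster 4. Without cluster 4 the same 4 genes were lower (7.95% of all measured genes were) and the chain sum was 0.699 (0.652 to 0.749), which is neither. The clusters were filled unevenly, with 1272 WT and 469 Chrna5-/- cells in cluster 4 and 320 and 1212 in cluster 20. Over the 14 clusters the ratio of the chain sum ran from 0.476 in cluster 11 to 1.64 in cluster 15. The latter rests on 23 and 13 UMIs, with an interval of 0.763 to 3.38. The chain sum was lower in 6 of the 14 clusters and higher in 0. Cd74 was lower in 4 of its 13 measured clusters and higher in 1, cluster 9, at 2.82 (1.55 to 4.96) on 42 and 19 UMIs.

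Most of these UMIs were single ones spread over many cells. No chain UMI was found in 6011 WT and 6076 Chrna5-/- cells, and 1254 and 853 cells had exactly 1. Cells with 5 or more numbered 44 and 26, the highest at 32 and 30 chain UMIs, and 14 and 9 of them also had Cd207. At 1000 UMIs per cell, 2.61% and 1.74% of keratinocyte-like cells held a chain UMI (21.2% and 14.5% unthinned). That share was 3.77% and 5.00% in melanocyte-like cells (16.6% and 15.1% unthinned), a class with median depths of 6129 and 3088 UMIs against 14367 and 14122. At equal depth the keratinocyte share was below that of melanocyte-like cells, which rests on at most 187 and 106 cells. By summed level keratinocyte-like cells were higher in WT (21.0 against 15.8 CPM) and lower in Chrna5-/- (13.7 against 26.9 CPM). Whether these UMIs are expression or free RNA was not tested.

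The counts were also computed after a subtraction. When 5% of each class's UMIs were assumed to be free RNA with the profile of the whole library, the keratinocyte chain level went from 21.0 to 9.37 CPM in WT and from 13.7 to 8.73 CPM in Chrna5-/-. The log2 ratio was then -0.10, none of the measured genes was lower, and Cd74 stood at 0.08. Of the Cd74 UMIs 25.5% and 43.7% were left, and of the Cd207 UMIs 19.6% and 46.6%. Under this setting the lower calls of Cd74, H2-Aa and H2-Ab1 ended. Ctss was left with 14.6 and 2.55 UMIs, under the minimum of 20, so it was not measured. Its level was then 0.132 CPM in WT and 0.0249 CPM in Chrna5-/-. The whole-library profile held 241 chain CPM in WT and 109 in Chrna5-/-, so this setting by its form takes more from the WT level. The end of the lower calls is therefore no test of free RNA, whose true share was not measured.

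The genes did not shrink alike, and the share left is fixed by a gene's level in the class against that in the library. After the same subtraction 65.3% and 79.0% of the H2-Eb1 UMIs were left in keratinocyte-like cells, 81.5% and 87.3% of those of H2-DMa, and 88.7% and 90.7% of those of H2-DMb1. The make-up of the chain UMIs differed accordingly from that of Langerhans cell-like cells. H2-Eb1 was 34.1% and 40.2% of the keratinocyte chain UMIs against 20.1% and 18.9%, and Cd74 was 29.8% and 28.1% against 39.7% and 42.0%. Per Cd74 UMI, H2-Eb1 was 2.26 times (2.03 to 2.51) the Langerhans cell-like ratio in WT and 3.19 times (2.77 to 3.66) in Chrna5-/-. The ratio was above that of Langerhans cell-like cells in both libraries.

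By cluster, H2-Eb1 was at 13.9 and 8.27 CPM in cluster 4 and at 13.2 and 9.18 CPM in cluster 20, the 2 highest of the 14 in both libraries, while cluster 2 was at 4.58 and 2.65 CPM. H2-DMb1 had another pattern. It was at 11.8 and 9.73 CPM in cluster 2, the highest of the 14 in both libraries, and at 3.16 and 2.87 CPM in cluster 4.

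**Figure D4:**
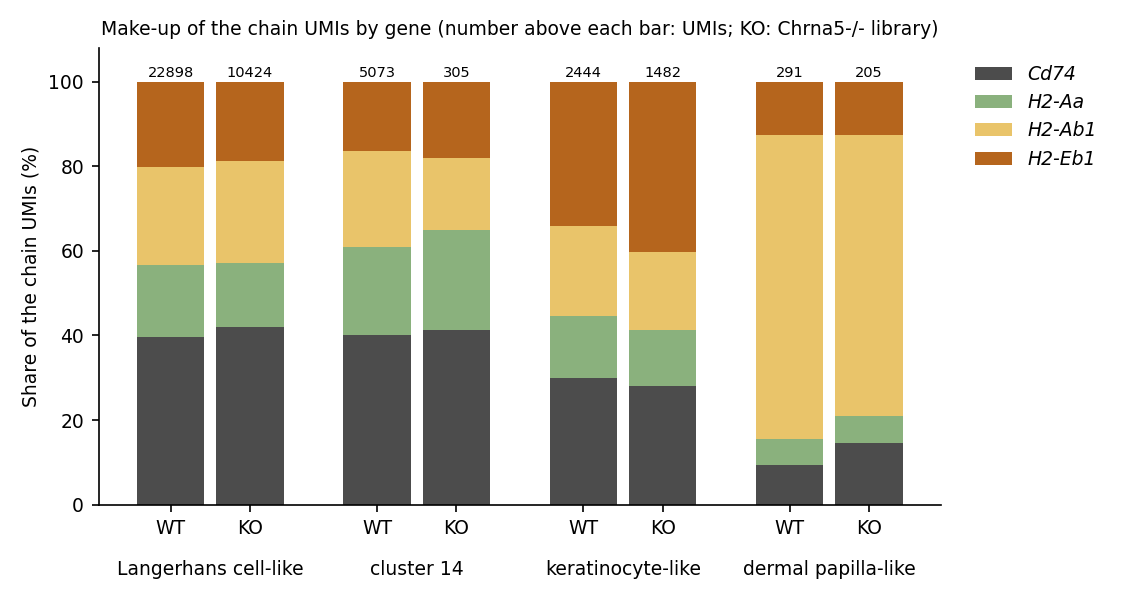
Make-up of the chain UMIs by gene, as percent of the UMIs of Cd74, H2-Aa, H2-Ab1 and H2-Eb1 together, in 4 groups of cells with WT and Chrna5-/- (KO) bars side by side and the number of UMIs above each. H2-Eb1 takes 34.1% and 40.2% in keratinocyte-like cells, and H2-Ab1 takes 71.8% and 66.3% in dermal papilla-like cells, against 23.3% and 24.0% in Langerhans cell-like cells.

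Dermal papilla-like cells, cluster 0 with 584 WT and 508 Chrna5-/- cells, held mostly H2-Ab1. This beta chain gene had 209 UMIs in WT and 136 in Chrna5-/-, at 56.3 and 51.4 CPM, while its partner H2-Aa had 18 and 13 UMIs and Cd74 27 and 30. H2-Ab1 was 71.8% and 66.3% of the chain UMIs, which per Cd74 UMI was 13.2 times (8.79 to 20.5) and 7.93 times (5.29 to 12.2) the Langerhans cell-like ratio. The UMIs were spread thinly: 132 and 115 cells had exactly 1 chain UMI, and 4 and 2 cells had 5 or more. The 5% subtraction left 95% and 97.5% of the H2-Ab1 UMIs. None of the 6 measured genes was higher or lower between the libraries, where 7.63% of 11394 measured genes were, and H2-Ab1 had a ratio of 0.912 (0.729 to 1.14).

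H2-DM was the other class II component found in these cells. H2-DMb1 had 77 and 77 UMIs in dermal papilla-like cells, at 20.7 and 29.1 CPM, a ratio of 1.40 (1.01 to 1.95), and H2-DMa had 50 and 33 UMIs. H2-DMb2 and Ciita had 0 UMIs in both libraries. A count of 0 allows up to 3 UMIs. At the Langerhans cell-like ratio to Cd74 fewer than 1 UMI of either would be seen, so their absence cannot be read against Cd74. Set against H2-DMb1, Langerhans cell-like cells had 98 and 53 H2-DMb2 UMIs beside 273 and 142 of H2-DMb1. Dermal papilla-like cells had 0 of H2-DMb2 beside 77 and 77 of H2-DMb1. Set against Cd74, H2-DMb1 was 94.9 times (59.2 to 155) the Langerhans cell-like ratio in WT and 79.2 times (49.3 to 129) in Chrna5-/-.

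The beta chain genes of H2-DM, neighbours that share most of the upstream stretch printed above, were distributed differently. H2-DMb2 had 111 and 58 UMIs in all kept cells, of which 11.7% and 8.62% lay outside the Langerhans cell-like class. H2-DMb1 had 774 and 476 UMIs, of which 64.7% and 70.2% lay outside it, 40.2% and 50.4% in keratinocyte-like cells. In keratinocyte-like cells H2-DMb1 was 14.2 times (11.8 to 17) and 17.8 times (14 to 22.5) the Langerhans cell-like ratio to Cd74. H2-DMb2, with 9 and 4 UMIs there and so not measured, was at 1.14 times (0.506 to 2.27) and 0.793 times (0.207 to 2.17) its own. For H2-DMa 41.3% and 46.7% of the UMIs lay outside, for Ctss 39.6% and 22.3%, and for Ciita 6.25% and 15.4%, which was 6 UMIs in each library. For comparison, Cd207 had 6.63% and 10.4% outside the class.

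In the 12 class II-high WT cells of cluster 14, H2-DMb1 had 95 UMIs and H2-DMb2 had 3. Over the whole of cluster 14 in WT, H2-DMb2 was 0.137 times (0.0277 to 0.413) and Ciita 0.0994 times (0.0118 to 0.37) the Langerhans cell-like ratio to Cd74. These 2 values rest on 3 and 2 UMIs, too few to be measured. H2-DMb1 was 1.61 times (1.25 to 2.04) and Ctss 2.19 times (1.77 to 2.7) the Langerhans cell-like ratio. These ratios cover the whole cluster, and 91 of its 146 Ctss UMIs lay in sub-cluster 4.

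**Figure D5:**
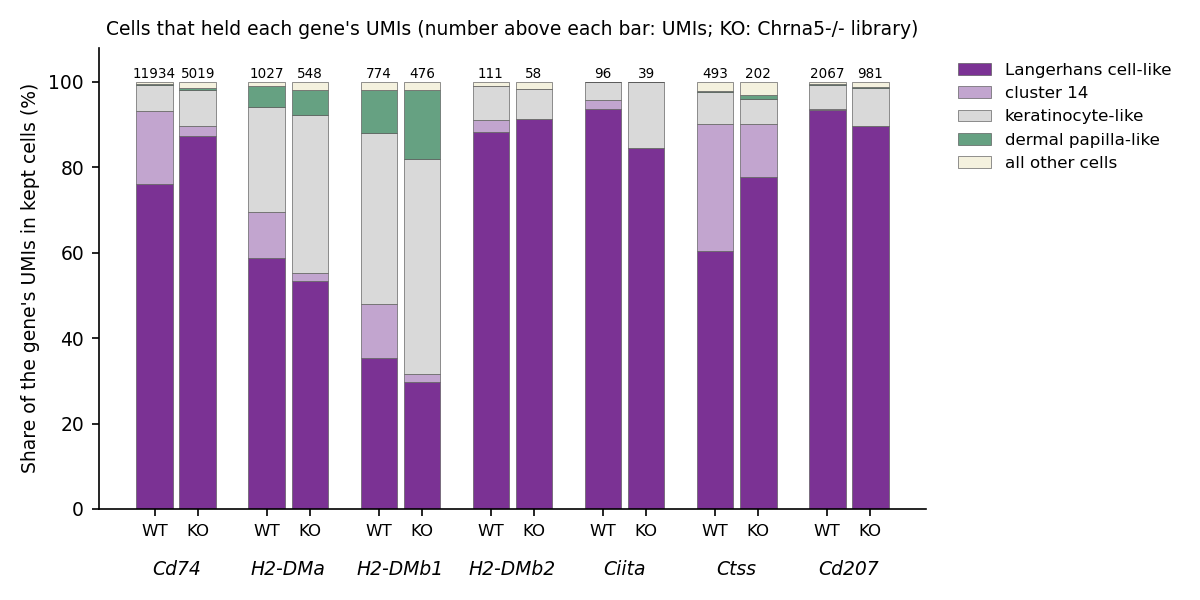
Share of each gene's UMIs in kept cells that lay in the Langerhans cell-like class, cluster 14, keratinocyte-like, dermal papilla-like and all other cells, with WT and Chrna5-/- (KO) bars for each gene and the number of UMIs above each bar. H2-DMb2 and Ciita lie with Cd207 mostly in the Langerhans cell-like class, and 64.7% and 70.2% of H2-DMb1 lies outside it.

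Across the 6 named classes in both libraries, 12 points that share libraries and depth, the genes whose log2(CPM + 1) was most like the chain sum were Snx20, Cd86, C1qa, Cd207, Alox5, Xlr, Cfp and Mmp9, from r = 0.991 to 0.980 among 13480 genes. The same measure was 0.983 for H2-DMb2, 0.981 for Ciita, 0.970 for Ctss and 0.941 for H2-DMb1, the lowest of the 9 class II genes. Cd86 was at 423 and 494 CPM in Langerhans cell-like cells and at 0.129 and 0.102 CPM in keratinocyte-like cells. These coefficients describe 1 class of high cells against the others.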

How the data were processed

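Single-cell RNA from 2 libraries of vaseline-treated mouse dorsal skin was used. The deposited matrices hold whole UMI counts per gene and barcode, with no normalization, per the file headers. They were made with Cell Ranger 3.0.2 on mm10, and Seurat 3.0 appears there too, per the submitters' processing notes. Strand use and the treatment of shared reads are not stated. The file headers name software version 3.1.0. Feature and barcode lists hold names only.

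Cells with at least 500 UMIs, 300 genes and at most 20% mitochondrial UMIs were kept (10160 and 9308), and doublets with a Scrublet score over 0.25 (scanpy 1.11.5, rate 0.08) were removed (4.79% and 4.72%). Clusters came from 2000 variable genes without class II, mitochondrial, ribosomal, haemoglobin, sex-linked and stress genes, 30 components, 15 neighbours and Leiden resolution 1 (igraph 0.11.9), giving 24 clusters. A class name needed at least 3 markers found in 25% of a cluster's cells, and a shallow cluster with none of its markers among its 10 leading genes stayed unnamed. Counts were summed per class and library and scaled to CPM. A class was compared where each library had 40 or more cells of it. Intervals are exact Poisson for levels, conditional binomial for ratios and Clopper-Pearson for shares, and the exact conditional interval of the odds ratio for a gene's ratio to Cd74 or Cd207 against that of the Langerhans cell-like class (scipy 1.17.1). A count of 0 took a floor of 3 counts over the class.

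The ratio call was tested on simulated counts with 200 genes changed 3-fold, drawn by Poisson from the pooled profile of each class. It recovered 81.5% in the Langerhans cell-like class (3949 genes) and 97% in keratinocyte-like cells (14628 genes), and called 2.84% and 0.765% of unchanged genes. Variation between cells or libraries was not simulated, so these shares hold for counting error alone. The named genes are the 9 members in every class, the listed genes past the fold rule, and the 8 genes most like the chain sum. Spi1, Rfx5, Cd86, H2-Oa, H2-Ob and H2-Eb2 were added afterwards. Members and lists were chosen with earlier results of these data known. Alternatives changed the cell filter, doublet score, clustering, gate, scale, depth and free RNA.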

Additional observations from a re-analysis of the deposited data

How the results depend on the processing

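No paired analysis was possible because each genotype had 1 library. In the Langerhans cell-like class none of the 9 genes was higher or lower under any of the 13 alternatives run there, which do not include the shallow cells taken alone. The log2 ratio of the chain sum, 0.16, became 0.20 with a strict cell filter (39 and 23 cells), 0.20 with no doublets removed, -0.18 at a doublet score of 0.15, 0.044 at resolution 2, 0.041 with class II genes among the variable genes, -0.040 with a gate on each cell, 0.073 after thinning, 0.056 when cells were averaged, 0.11 on a median-of-ratios scale, 0.23 in cells with at least 2000 UMIs and 0.20 in cells with at most 10% mitochondrial UMIs. The level of the chain genes in that class (WT, then Chrna5-/-) was 54460 and 62658 CPM with the strict filter, 47171 and 54054 with no doublets removed, 62643 and 55264 at a score of 0.15, 47269 and 48739 at resolution 2, 49166 and 50593 with class II genes variable, 43855 and 42644 with the gate, 50210.5 and 52823.5 after thinning, 46128 and 47968 with cells averaged, 54436 and 60775 after the 5% subtraction, 53695 and 62865 in the deeper cells and 54275 and 62247 in the cells with at most 10% mitochondrial UMIs.

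The percent of chain UMIs outside the class was 17.7 in Chrna5-/- with the strict filter, 28.1 and 19.3 (WT, then Chrna5-/-) with no doublets removed, 10.6 and 14.1 at a score of 0.15, 10.0 and 15.0 at resolution 2, 10.0 and 14.9 with class II genes variable, 45.0 and 45.1 with the gate, 28.5 and 13.8 after thinning, 22.1 and 12.7 after subtraction, 26.5 and 19.3 in the deeper cells, 26.6 and 17.8 in the cells with at most 10% mitochondrial UMIs, and 12 and 15.5 without sub-cluster 4. At resolution 2 the Langerhans cell-like class took in 25 WT cells of cluster 14, and at a score of 0.15 it took in 14. No cell added under these 2 settings had Cd207.

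In keratinocyte-like cells the chain log2 ratio, -0.61, became -0.78 as a mean over cells and -0.10 after subtraction. After subtraction 0 measured genes were lower, with Cd74 at 0.083 and Ctss not measured, and 2 genes were lower after thinning. In dermal papilla-like cells it was 0.37 after thinning. In cluster 14 it was -2.92 after thinning, -2.02 with cells averaged and -0.47 without sub-cluster 4, where H2-Aa stood at 0.87. For the listed genes the median log2 ratio was -0.10 at a score of 0.15, 0.17 at resolution 2, 0.16 with class II genes variable, -0.10 with the gate, -0.11 after thinning with 1 gene higher or lower, and -0.21 as a mean over cells with 11 genes higher or lower and Irf4 at 0.037. Of 497 further single values under these settings, 400 stayed within the interval of the first value. The sign was opposite in 38, most of them of genes called neither higher nor lower, and in 3 of genes that had been called. The settings on deep cells, mitochondrial share, keratinocyte cluster 4 and sub-cluster 4 were chosen after seeing the data. After thinning, subtraction and averaging the share of all genes called was not computed, so counts of genes called there stand without it.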

Other observations

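H2-M2, a non-classical class I gene on the Langerhans cell marker list, was not restricted to Langerhans cell-like cells. It had 2170 of its 2811 WT UMIs and 781 of its 997 Chrna5-/- UMIs in keratinocyte-like cells, 1135 and 350 of them in cluster 4 at 73.1 and 59.1 CPM. Langerhans cell-like cells were at 1431 and 1104 CPM. Cluster 4 is also one of the keratinocyte clusters with the most H2-Eb1.

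Within cluster 14, the sub-cluster led by Igkc, Igha and Jchain had 93 and 12 chain UMIs in 79 and 32 cells, and Cd74 was 68.8% of its WT chain UMIs, against 39.7% in WT Langerhans cell-like cells. In its Chrna5-/- cells Cd74 was 4 of the 12 UMIs, 33.3% (9.92 to 65.1). The sub-cluster with Foxp3 and Ctla4 among its leading genes, alpha beta T-like with 39 and 8 cells, had 21 and 25 chain UMIs, of which 21 in Chrna5-/- lay in 1 cell. With so few cells, it was not compared.

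Barcodes left out by the filters held 1864 (WT) and 638 (Chrna5-/-) further chain UMIs. Of these, 1253 and 369 lay in barcodes left out as doublets. At least 20 chain UMIs were found in 15 and 5 left-out barcodes, 13 and 4 of them with Cd207.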
